A study of Mus musculus with 6 samples.

Results

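The Gimap family was followed through 6 RNA-seq libraries of cancer-associated dendritic cells. Its 8 mouse members are Gimap1, Gimap3, Gimap4, Gimap5, Gimap6, Gimap7, Gimap8 and Gimap9, out of 27634 genes in the deposited table. They were taken by gene symbol, which found 7 of them. The remaining member, Gimap8, stands in the table as IAN9, a name that RefSeq lists as a synonym of Gimap8, and its values below are those of that row. The family was chosen by the measured counts of Gimap4, which were higher with Satb1 siRNA in one experiment and lower in the other, so the levels under siRNA in both experiments are given as a description, with no test on the members.

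All libraries came from C57BL/6 mice bearing ID8-Defb29/Vegf-a, an ovarian cancer line engineered to make beta-defensin 29 and VEGF-A, grown for 32 to 38 days. The mice received 100 µg of siRNA in rhodamine-conjugated polyethylenimine nanocomplexes, a polymer carrier that phagocytes take up. Satb1 siRNA is directed at Satb1, which encodes a protein that folds chromatin into loops, and non-targeting (NT) siRNA is its control. The labels give 2 experiments by how far Satb1 went down. The one with strong silencing, called high here, holds 2 libraries with Satb1 siRNA and 2 with NT siRNA, and the one with weak silencing, called low, holds 1 of each kind. The sources used here do not say how old the mice were, whether they carried another allele, how the cells were sorted or whether animals were pooled.

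GIMAP proteins (GTPases of immunity-associated proteins) are small GTP-binding proteins that sit mostly on membranes inside the cell. They are best known from lymphocytes, where several of them keep T and B cells alive or set how readily these cells die. Their genes lie side by side in a cluster on mouse chromosome 6. They share a GTP-binding loop, the P-loop, whose coding sequence is printed here because it shows both how alike the members are and where reads could be shared. Each line gives 9 bases, the 24 bases of the loop in capitals and 9 bases more, read 5′ to 3′ from the GENCODE M21 transcript with the longest complete coding sequence. Gimap8 carries 3 such loops and every other member 1.
Gimap1: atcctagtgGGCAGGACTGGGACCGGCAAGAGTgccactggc
Gimap3: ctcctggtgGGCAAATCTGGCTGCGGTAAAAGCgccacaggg
Gimap4: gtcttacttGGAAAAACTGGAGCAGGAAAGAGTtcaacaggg
Gimap5: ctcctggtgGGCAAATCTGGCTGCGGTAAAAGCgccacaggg
Gimap6: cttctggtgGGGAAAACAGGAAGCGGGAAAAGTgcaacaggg
Gimap7: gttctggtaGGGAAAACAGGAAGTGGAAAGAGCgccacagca
Gimap8, loop 1: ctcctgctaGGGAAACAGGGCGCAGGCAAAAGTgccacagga
Gimap8, loop 2: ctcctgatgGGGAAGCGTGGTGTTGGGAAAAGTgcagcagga
Gimap8, loop 3: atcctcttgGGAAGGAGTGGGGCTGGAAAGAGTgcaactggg
Gimap9: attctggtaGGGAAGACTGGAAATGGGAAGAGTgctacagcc

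The printed stretch is the same in Gimap3 and Gimap5 and differs in all other members. Over the whole coding sequence Gimap3 and Gimap5 were 90.7% identical in 895 aligned bases. Every other pair that leaves out the longer Gimap8 lay between 57.9% and 68.8%. Of the 50-base windows of the transcripts, 9.98% of those of Gimap5 also occurred in Gimap3 and 9.07% of those of Gimap3 in Gimap5. No window was shared between any other members. Levels of Gimap3 and Gimap5 are therefore uncertain to the extent that the authors' counting divided reads between them. In GENCODE M21 an antisense gene, Gimap1os, overlaps Gimap1, and another gene annotated as protein-coding, Gm28053, overlaps Gimap7, Gimap1 and Gimap5. The libraries were stranded, but the sources used here do not say whether the counting used strand. If it did not, reads of Gimap1 and its antisense partner cannot be told apart.

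Total counts ran from 24553454 to 71272720 per library, and 3 counts, the most that a count of 0 allows, came to 0.0421 to 0.122 CPM (counts scaled to library size). The repeats of each high group were nearly identical, with a mean chi-square per gene of 1.37 for Satb1 siRNA and 1.202 for NT, where counting noise gives about 1. They are shown one by one and counted as 1 sample per group. For the members this chi-square ranged from 0.772 (Gimap4) to 2.88 (Gimap3) between the Satb1 siRNA repeats and from 0.0431 (Gimap5) to 2.78 (Gimap3) between the NT repeats. Satb1, the targeted gene, had 184 and 200 counts in the high Satb1 siRNA libraries, against 1233 and 1193 in the high NT libraries. In the low experiment it had 165 counts in the Satb1 siRNA library, against 170 in the NT library, or 7.42 CPM with Satb1 siRNA, against 8.89 CPM with NT siRNA, after TMM scaling. The direction of the targeted gene in the low experiment turned with the scaling. With library size alone Satb1 stood at 6.72 CPM with Satb1 siRNA, against 6.29 CPM with NT siRNA, and the authors' FPKM were 1.04 with Satb1 siRNA, against 0.98 with NT siRNA. Intervals below are exact 95% intervals for counting error only, and levels in CPM are scaled by TMM over 6 libraries unless the authors' FPKM (values per transcript length) are named.

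Set against each other per length, Gimap1 outweighed the rest of the family in the high experiment and did not in the low one. Gimap1, whose loss in mice stops T and B cells from accumulating, stood at 49.91 and 51.99 FPKM in the high Satb1 siRNA libraries, against 36.91 and 36.59 FPKM in the high NT libraries. It stood at 5.61 FPKM in the low Satb1 siRNA library, against 4.54 FPKM in the low NT library. Thus both high groups lay far above both low libraries. Gimap1 made up 75.5% and 77.0% of the summed FPKM of the family in the high Satb1 siRNA libraries, against 78.4% and 78.3% in the high NT libraries. Its share in the low experiment was 24.7% in the Satb1 siRNA library, against 17.7% in the NT library. Summed over the other 7 members, the authors' FPKM came to 16.24 and 15.56 with Satb1 siRNA, against 10.17 and 10.14 with NT siRNA, in the high experiment, and to 17.11 with Satb1 siRNA, against 21.14 with NT siRNA, in the low one.

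**Figure D1:**
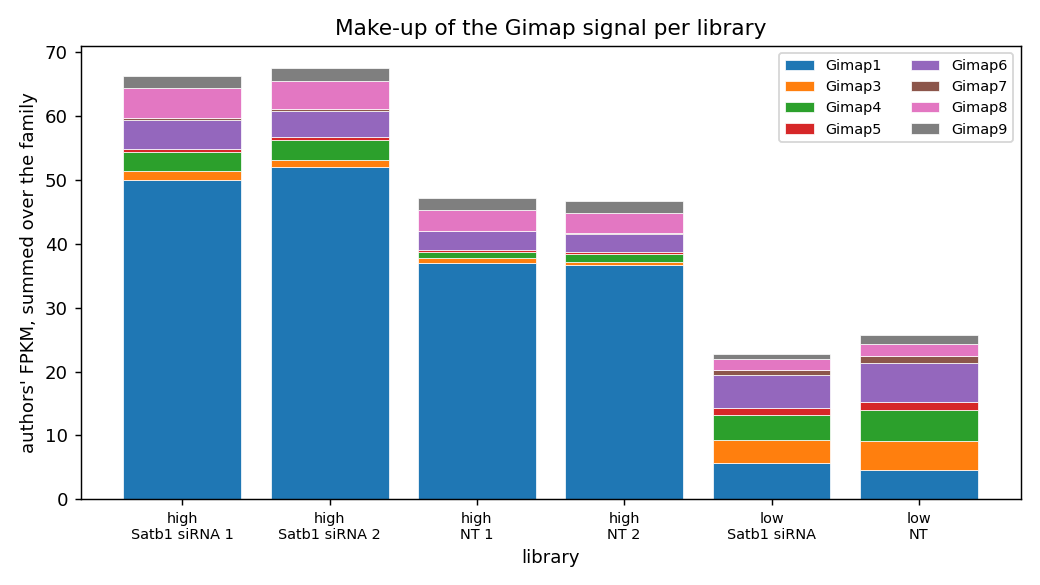
The authors' FPKM of the 8 Gimap genes, stacked, in each of the 6 libraries (x axis); colours mark the members. Gimap1 makes up 75.5% to 78.4% of the bars of the high experiment and 17.7% to 24.7% of those of the low one.

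After Gimap1, the order of the members in both high groups began with Gimap8 and Gimap6, at 4.60 and 4.25 FPKM on average with Satb1 siRNA, against 3.22 and 2.91 FPKM with NT siRNA. Gimap5 and Gimap7 closed it, at 0.460 and 0.325 FPKM with Satb1 siRNA, against 0.315 and 0.05 FPKM with NT siRNA. In the low NT library Gimap6 led with 6.14 FPKM, followed by Gimap4 (4.92), Gimap3 (4.57) and Gimap1 (4.54), neighbours whose order rests on single libraries. Gimap7 was last in all 4 groups.

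**Figure D2:**
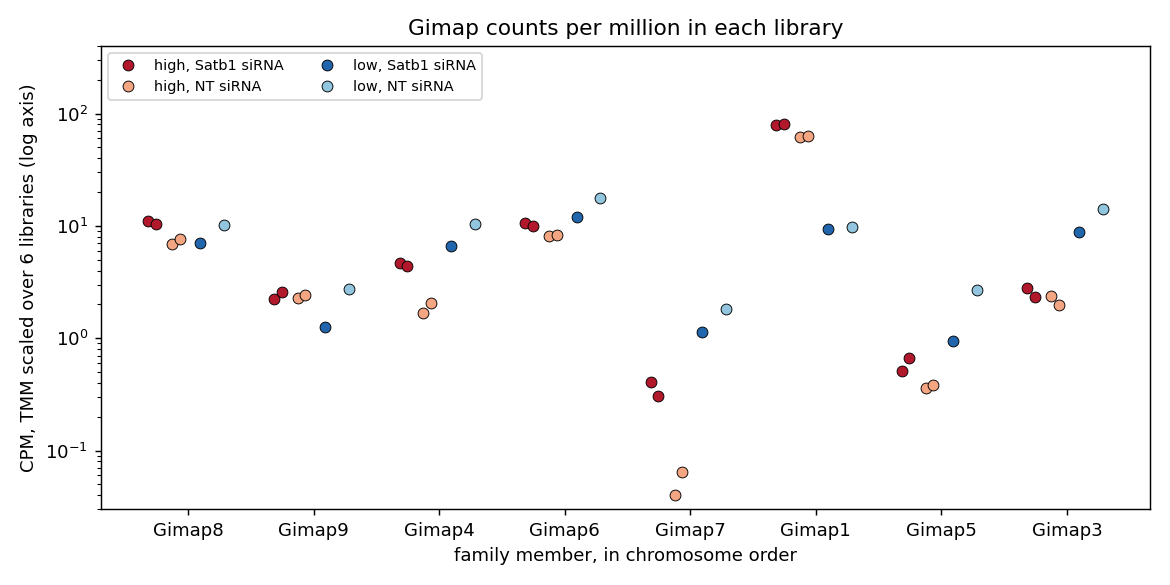
CPM of each Gimap gene (x axis, in chromosome order) on a log axis, 1 point per library, scaled by TMM over 6 libraries; colours mark the groups. Gimap4 lies at 4.71 and 4.36 CPM with Satb1 siRNA in the high experiment, above its 1.68 and 2.04 CPM with NT siRNA, and at 6.61 CPM with Satb1 siRNA in the low one, below its 10.4 CPM with NT siRNA.

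Gimap4 was the member that brought the family into view. It encodes a GTPase that is reported to hasten the death of T cells. Its counts in the high experiment came to 278 and 244 with Satb1 siRNA, against 125 and 159 with NT siRNA. This is 4.71 and 4.36 CPM with Satb1 siRNA, against 1.68 and 2.04 CPM with NT siRNA, a ratio of 2.43 (95% counting interval 2.10 to 2.82). The groups did not overlap. Gimap4 in the low experiment had 147 counts with Satb1 siRNA, against 199 with NT siRNA. Scaled, this is 6.61 CPM with Satb1 siRNA, against 10.4 CPM with NT siRNA, a ratio of 0.636 (0.510 to 0.791). Of the 4 groups, the high NT group was the lowest and the low NT library the highest, so the direction under Satb1 siRNA was opposite while the level with Satb1 siRNA lay between the controls in both experiments.

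In the high experiment all 8 members were above their NT level after TMM scaling, by amounts between 1.02-fold and 6.79-fold. Of all genes tested, 50.4% were above 0 on this scale. Gimap7, a GTPase whose human form stimulates the activity of its relatives, had only 24 and 17 counts with Satb1 siRNA, against 3 and 5 with NT siRNA. Its ratio of 6.79 therefore has a wide interval, from 3.14 to 16.8. Gimap8, the member with several GTP-binding domains, had 651 and 581 counts with Satb1 siRNA, against 514 and 593 with NT siRNA, and scaled to library size its groups did not overlap, at 11.03 and 10.4 CPM with Satb1 siRNA, against 6.92 and 7.60 CPM with NT siRNA. The ratio was 1.47 (1.36 to 1.60). Gimap5, whose loss in rats and mice depletes T cells, was scarce. It had 30 and 37 counts with Satb1 siRNA, against 27 and 30 with NT siRNA, a ratio of 1.56 (1.08 to 2.26).

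Gimap1 and Gimap6 were abundant and moderately higher. Gimap1 had 79.0 and 81.5 CPM with Satb1 siRNA, against 62.1 and 62.5 CPM with NT siRNA, a ratio of 1.29 (1.25 to 1.32). Gimap6, which binds an autophagy protein of the GABARAP group, had 10.7 and 10.01 CPM with Satb1 siRNA, against 8.07 and 8.32 CPM with NT siRNA, a ratio of 1.26 (1.17 to 1.37). In both genes the groups were apart. Gimap3, the close relative of Gimap5, had 2.81 and 2.31 CPM with Satb1 siRNA, against 2.38 and 1.99 CPM with NT siRNA, with overlapping groups and a ratio of 1.18 (1.00 to 1.38). On the authors' FPKM the groups of Gimap3 did not overlap, at 1.38 and 1.15 with Satb1 siRNA, against 0.79 and 0.60 with NT siRNA, a log2 ratio of 0.79. The length implied by its unscaled CPM over FPKM was 2.33 and 2.29 kb with Satb1 siRNA, against 3.31 and 3.62 kb with NT siRNA, so its ratio is uncertain. Gimap9 had 2.24 and 2.57 CPM with Satb1 siRNA, against 2.26 and 2.42 CPM with NT siRNA. Its groups overlapped as well, and the interval of its ratio of 1.02 reached from 0.8719 to 1.2015.

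In the fit of all 20242 genes tested, edgeR's quasi-likelihood test called 6 of the 8 members higher, none lower and 2 (Gimap3 and Gimap9) not. At the same adjusted p under 0.05 it called 66% of all genes, 32.8% higher and 33.2% lower. Since this contrast chose the family and the repeats are nearly identical, nothing is read from the count. Gimap7 passed the filter on low counts through the Satb1 siRNA libraries. The median log2 ratio of the members was 0.46, beside 0.0042 for all genes tested. The Gimap5 call ended in DESeq2 and when either NT library or the second Satb1 siRNA library was left out, and Gimap3 was called higher with library size alone, without the second Satb1 siRNA library or without the first NT library.

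**Figure D3:**
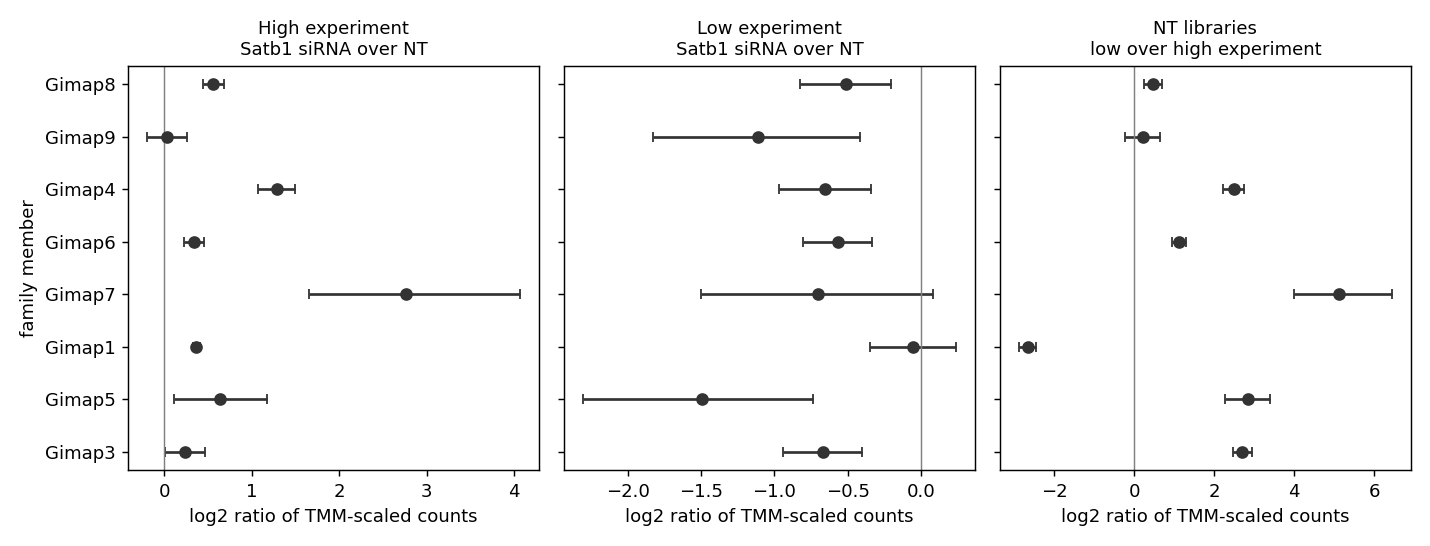
Log2 ratio of TMM-scaled counts (x axis) for each Gimap gene (y axis, in chromosome order) in 3 comparisons, with exact 95% counting intervals as bars. All 8 points lie right of 0 in the high experiment, all 8 left of 0 in the low one, and Gimap1 alone lies left of 0 between the NT libraries.

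In the low experiment all 8 members were below their NT level after TMM scaling. There is 1 library per siRNA, so no test was possible and intervals hold counting error alone. Gimap5 had 21 counts with Satb1 siRNA, against 51 with NT siRNA, a ratio of 0.354 (0.202 to 0.600). Gimap9 had 28 counts with Satb1 siRNA, against 52 with NT siRNA, a ratio of 0.463 (0.282 to 0.747). These were the members with the lowest ratios, and both had few counts. Gimap3 followed with 8.86 CPM with Satb1 siRNA, against 14.1 CPM with NT siRNA, a ratio of 0.628 (0.520 to 0.757). Gimap6 had a ratio of 0.674 (0.572 to 0.793) and Gimap8 one of 0.700 (0.563 to 0.869). For Gimap7, at 25 counts with Satb1 siRNA, against 35 with NT siRNA, the interval of 0.353 to 1.06 included 1. Gimap1 stood at 9.40 CPM with Satb1 siRNA, against 9.78 CPM with NT siRNA, and the interval of its ratio, 0.786 to 1.18, also included 1.

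Of the members, 2 were at least 2-fold lower (Gimap5 and Gimap9) and none at least 2-fold higher. Among the 13700 genes whose log2 CPM averaged 0 or more, 3.93% were at least 2-fold lower, 9.28% at least 2-fold higher and 55.2% below 0. Gimap5 and Gimap7 lay under that level, and of the other 6 members 1 was at least 2-fold lower. The low ratios depend on scaling. The median log2 ratio of all genes was -0.059 with TMM and 0.29 with library size alone, while the members' median was -0.66 with TMM and -0.31 with library size alone. With library size alone Gimap1 was above 0 (0.30), and the other 7 members stayed below it, from -0.16 for Gimap8 to -1.10 for Gimap5.

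The count of Gimap5 in the low experiment is at odds with the authors' own FPKM. Its counts of 21 with Satb1 siRNA, against 51 with NT siRNA, stand beside 1.00 FPKM with Satb1 siRNA, against 1.22 FPKM with NT siRNA. The length implied by unscaled CPM over FPKM was 0.855 kb with Satb1 siRNA, against 1.55 kb with NT siRNA. Of 11757 genes with 20 or more counts and 0.5 or more FPKM in both low libraries, 17 (0.145%) had implied lengths that differed by over 1.5 times. Its low ratio is uncertain for that reason, and on the FPKM scale its log2 ratio was -0.26.

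For 6 of the 8 members, all but Gimap8 and Gimap9, the NT libraries of the experiments lay further apart than Satb1 siRNA and NT siRNA did within either experiment. This comparison did not choose the family, but it sets 1 low NT library against near-identical high NT libraries, so that mice, run and experiment cannot be told apart and there is no test. Gimap7 was at 1.83 CPM with NT siRNA in the low experiment, against 0.0404 and 0.0641 CPM in the NT libraries of the high experiment, a ratio of 34.8 (15.9 to 86.9). Gimap5 stood at 2.67 CPM with NT siRNA in the low experiment, against 0.364 and 0.384 CPM in the NT libraries of the high experiment, a ratio of 7.12 (4.79 to 10.6). Gimap3 stood at 14.1 CPM with NT siRNA in the low experiment, against 2.38 and 1.99 CPM in the NT libraries of the high experiment, a ratio of 6.48 (5.49 to 7.63). These 3 members, and Gimap4 with a ratio of 5.58 (4.63 to 6.71), were far higher in the low NT library.

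Gimap6 was higher by less, at 17.8 CPM with NT siRNA in the low experiment, against 8.07 and 8.32 CPM in the NT libraries of the high experiment, a ratio of 2.18 (1.92 to 2.45). Gimap1 went the other way, at 9.78 CPM with NT siRNA in the low experiment, against 62.1 and 62.5 CPM in the NT libraries of the high experiment, a ratio of 0.157 (0.135 to 0.181). For Gimap8 the ratio was 1.39 (1.19 to 1.62) and for Gimap9 1.16 (0.850 to 1.55). The median log2 ratio of all genes between the NT libraries was 0.073 with TMM and -0.56 with library size alone. With library size alone both of these members turned, with log2 ratios of -0.15 and -0.41, and on the authors' FPKM they were -0.72 and -0.42. Groups that did not overlap in the high experiment, with a higher level there and a lower one in the low experiment, were seen in 6 of the 8 members (Gimap1, Gimap4, Gimap5, Gimap6, Gimap7 and Gimap8). Of the 6 members whose log2 CPM averaged 0 or more 4 showed this pattern, as did 14.7% of all genes at that level. Nothing is read from these counts, since this pattern chose the family. With library size alone and on the authors' FPKM 5 of these 6 members kept opposite directions, since Gimap1 was then above 0 in the low experiment. Gimap3, whose groups overlapped after TMM scaling, showed the pattern in both of these settings. With library size alone it had 3.21 and 2.63 CPM with Satb1 siRNA, against 2.61 and 2.17 CPM with NT siRNA, in the high experiment. In the low one it had 8.02 CPM with Satb1 siRNA, against 9.99 CPM with NT siRNA. Between the NT libraries, 5 members were at least 2-fold higher in the low NT library and 1 at least 2-fold lower, and 3 and 1 among the 6 members whose log2 CPM averaged 0 or more. Of all genes at that level 25.7% were at least 2-fold higher and 22.7% at least 2-fold lower, and 52.3% were above 0. Fewer cells of a type that expresses these genes and less RNA per cell cannot be told apart in bulk libraries.

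**Figure D4:**
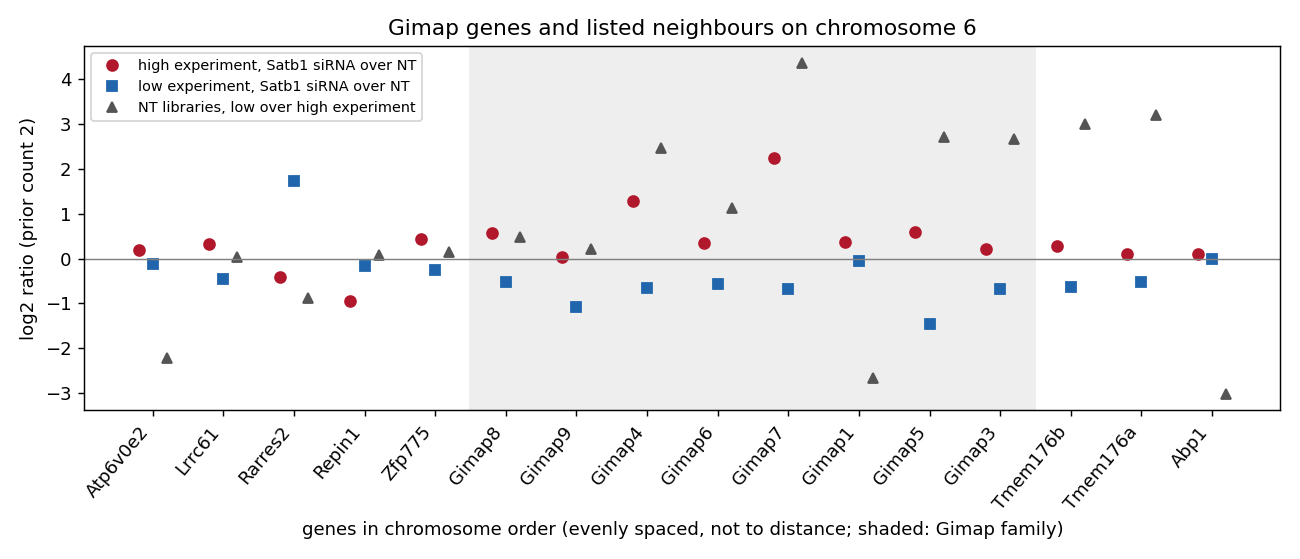
Log2 ratios (y axis, prior count of 2, TMM scaling) of the 8 Gimap genes (shaded) and 8 listed neighbours in chromosome order (x axis, evenly spaced) in 3 comparisons. Between the NT libraries Gimap4, Gimap7, Gimap5, Gimap3, Tmem176b and Tmem176a lie at 2.47, 4.37, 2.71, 2.68, 2.99 and 3.20, and Gimap1, within the same stretch, at -2.67. The other listed neighbours lie between -3.02 and 0.16.

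The genes next to the family were looked at in the same way. RefSeq's order on chromosome 6 runs from Zfp775 through Gimap8, Gimap9, Gimap4, Gimap6, Gimap7, Gimap1, Gimap5 and Gimap3 to Tmem176b and Tmem176a, which encode paired membrane proteins known from dendritic cells. Tmem176b, next to Gimap3, had 301.8 CPM in the low Satb1 siRNA library, against 466.1 CPM in the low NT library. It had 70.9 and 72.6 CPM in the high Satb1 siRNA libraries, against 59.1 and 58.3 CPM in the matching NT libraries. Tmem176a stood at 160.3 CPM in the low Satb1 siRNA library, against 229.4 CPM in the low NT library, and at 27.7 and 25.9 CPM in the high Satb1 siRNA libraries, against 25.7 and 24.2 CPM in the matching NT libraries. Both thus lay with Gimap3, Gimap4, Gimap5 and Gimap7 in being higher in the low NT library. The other listed neighbours did not, with log2 ratios between the NT libraries of 0.16 for Zfp775, 0.042 for Lrrc61 and 0.087 for Repin1. Those of Rarres2, Atp6v0e2 and Abp1 were -0.88, -2.22 and -3.02. Of all genes whose log2 CPM averaged 0 or more, 25.7% were at least 2-fold higher in the low NT library.

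In edgeR's test of the high experiment 4 of the 8 neighbours were called higher (Tmem176b 0.29, Tmem176a 0.11, Lrrc61 0.33 and Zfp775 0.46 on the log2 scale), 2 lower (Repin1 -0.95, Rarres2 -0.42) and 2 not (Atp6v0e2 0.20, Abp1 0.15). The median was 0.17, beside 0.011 for all genes tested in the same fit. The Tmem176a and Rarres2 calls also ended in DESeq2, and that of Rarres2 with library size alone. Without the first Satb1 siRNA library the Zfp775 and Tmem176a calls ended, without the second NT library those of Tmem176a and Rarres2, and without the second Satb1 siRNA library that of Rarres2. Abp1 had 0 counts in both low libraries and 14 to 22 in the high ones.

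Promoters of all 8 members are held by RefSeq. Those of Gimap4 and Gimap1 are printed because Gimap4 is the gene by which the family was chosen and Gimap1 is the member lower in the low NT library. Each is 250 bases before RefSeq's start, on GRCm38.p6, 5′ to 3′ on the gene's strand, and 1 of the 6 GENCODE M21 transcripts of Gimap4 starts 29 bases before the end of the stretch printed for it. Capitals mark matches to the Runx core TGTGGT and the Ets core CGGAAG, on either strand.
Gimap4, chr6:48684328-48684577, plus strand: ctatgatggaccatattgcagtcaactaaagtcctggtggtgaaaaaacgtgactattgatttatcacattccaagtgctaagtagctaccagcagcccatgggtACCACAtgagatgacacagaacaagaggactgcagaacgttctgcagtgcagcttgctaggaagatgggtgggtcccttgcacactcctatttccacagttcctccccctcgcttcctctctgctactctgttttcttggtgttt
Gimap1, chr6:48738797-48739046, plus strand: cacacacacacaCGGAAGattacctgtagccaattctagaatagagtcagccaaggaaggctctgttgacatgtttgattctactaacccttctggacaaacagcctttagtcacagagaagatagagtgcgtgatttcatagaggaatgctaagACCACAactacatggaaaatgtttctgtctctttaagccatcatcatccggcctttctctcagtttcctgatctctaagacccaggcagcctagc

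The Runx core occurred in 3 of the 9 promoters that RefSeq lists for the family (Gimap1, Gimap4 and Gimap7), and in 14% of 32851 promoters of the same length. The Ets core also occurred in 3 (Gimap1, Gimap6 and 1 of the Gimap8 promoters), against 13.6% of all. TATAAA was found in that of Gimap6 alone (12.4% of all) and CACGTG in none (6.02% of all). A match is a string of letters and not a bound site.

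Across the 4 group means, the shape of Gimap4 was shared by some members and not by others. Likeness was measured as the Euclidean distance between centred log2 CPM over 4 groups, as a description. Gimap5 was the nearest member, at 0.774, with 44 of 11469 other named genes nearer to Gimap4 than it. Gimap3 (1.04) had 541 genes nearer, Gimap6 (1.07) had 649, Gimap7 (1.58) had 4229, Gimap8 (1.65) had 4598 and Gimap9 (2.07) had 6835. Gimap1 stood at 4.45, with 11081 genes nearer. The closest pair within the family was Gimap8 and Gimap9, at 0.620. The 8 named genes nearest to Gimap4 were Lax1, an adaptor of lymphocyte receptor signalling (0.312), Lrg1 (0.417), Pamr1 (0.417), the chloride channel gene Clcn1 (0.473), Mllt4 (0.480), Sidt1 (0.568), Hopx (0.577) and Nsg2 (0.611).

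**Figure D5:**
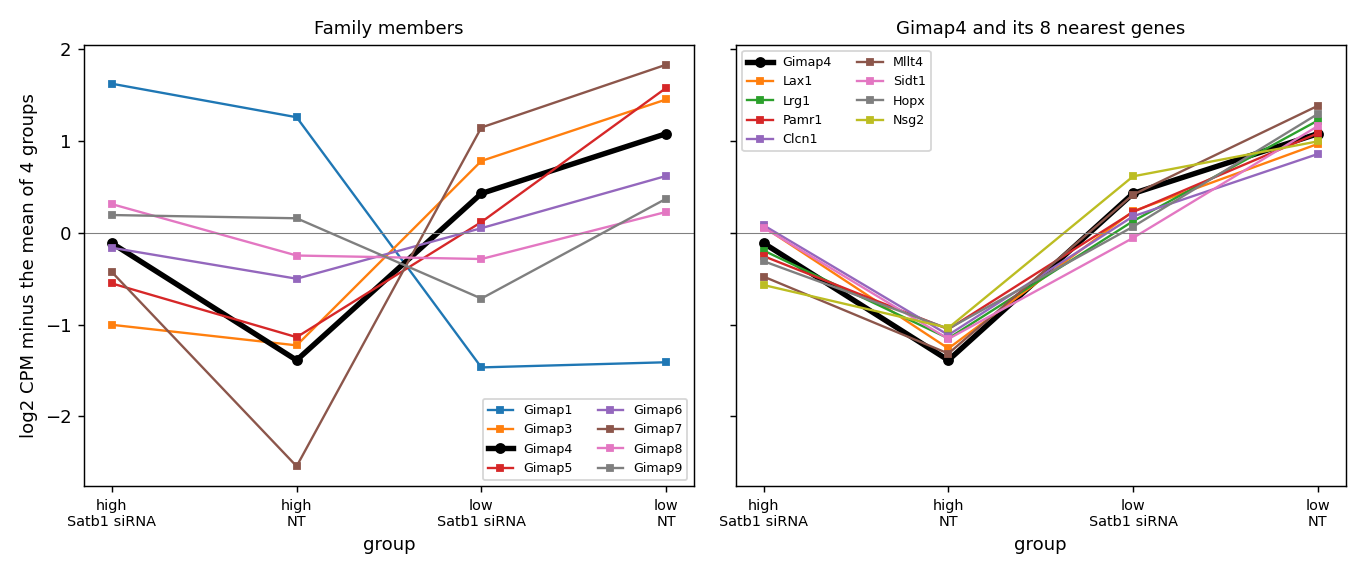
Log2 CPM minus the mean of 4 groups (y axis) in the 4 groups (x axis), for the family (left) and for Gimap4 with its 8 nearest named genes (right); lines join group means. Gimap4 (black) runs from -0.11 with Satb1 siRNA and -1.39 with NT siRNA in the high experiment to 0.43 with Satb1 siRNA and 1.08 with NT siRNA in the low one, and Gimap1 lies on the opposite side in each experiment.

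Gimap genes are known from T, B and natural killer cells and from endothelium, and markers of these cells were present in the libraries. Of 20 T cell markers, 9 were called higher, none lower and 11 not in the high experiment (Cd3d 0.36, Cd247 0.40), with a median of 0.44. Beside this and the lists that follow, 32.8% of all genes tested were called higher and 33.2% lower, with a median of 0.011. Summed, the list came to 95.2 and 95.1 CPM with Satb1 siRNA, against 77.8 and 76.9 CPM with NT siRNA, in the high experiment, and to 69.5 CPM with Satb1 siRNA, against 95.6 CPM with NT siRNA, in the low one. In the low experiment, 1 of the 10 T cell markers whose log2 CPM averaged 0 or more was at least 2-fold lower and none higher. Of all genes at that level 3.93% were lower and 9.28% higher by as much. The markers' median log2 ratio was -0.25, beside -0.059 for all genes. Low sums of this list and the next ones depend on scaling, since with library size alone the median of all genes was 0.29. Cd3d alone gave 40.8 and 41.2 CPM with Satb1 siRNA, against 33.3 and 31.0 CPM with NT siRNA, in the high experiment, while Cd3e, another subunit of the same complex, gave 0.186 and 0.286 CPM with Satb1 siRNA, against 0.0808 and 0.218 CPM with NT siRNA. In the low experiment Cd3e gave 2.07 CPM with Satb1 siRNA, against 3.76 CPM with NT siRNA, and Cd3d 4.05 CPM with Satb1 siRNA, against 4.29 CPM with NT siRNA. So Cd3d, like Gimap1, was lower in the low NT library than in the high NT libraries, and Cd3e, like Gimap5, was higher there. Of the 10 T cell markers whose log2 CPM averaged 0 or more, 6 were at least 2-fold higher in the low NT library and 3 lower. Of all genes at that level 25.7% were higher and 22.7% lower by as much. Measured by the same distance over 4 groups, Cd3d lay 0.23 from Gimap1 with 12 of 11469 genes nearer, a likeness picked out after the values were seen.

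Of 12 B cell markers 11 were tested, of which 8 were called higher, none lower and 3 not (Bank1 0.86, Ms4a1 1.15), with a median of 0.77. The list summed to 66.9 and 65.8 CPM with Satb1 siRNA, against 45.4 and 46.7 CPM with NT siRNA, in the high experiment, and to 72.8 CPM with Satb1 siRNA, against 73.9 CPM with NT siRNA, in the low one. Cd22 alone gave 42.4 CPM of the low sum with Satb1 siRNA, against 28.6 CPM with NT siRNA. Of the 8 B cell markers whose log2 CPM averaged 0 or more, 2 were at least 2-fold lower in the low experiment and none higher, beside 3.93% and 9.28% of all genes. Their median log2 ratio there was -0.55, beside -0.059 for all genes. The 6 natural killer cell markers found summed to 7.42 and 8.71 CPM with Satb1 siRNA, against 6.33 and 6.54 CPM with NT siRNA, in the high experiment, and to 112.5 CPM with Satb1 siRNA, against 131.5 CPM with NT siRNA, in the low one. Of the 4 tested, 2 were called higher and 1 lower (Eomes 0.50, Klrk1 0.31). The Klrk1 call ended in DESeq2, without the first NT library and without the second Satb1 siRNA library. Klrk1 alone gave 107.4 CPM of the low sum with Satb1 siRNA, against 126.9 CPM with NT siRNA. The other natural killer cell markers had few counts in the low libraries. Ncr1, Klre1 and Prf1 were higher there with Satb1 siRNA, and Eomes and Gzma lower. Endothelial markers summed to 29.5 and 28.8 CPM with Satb1 siRNA, against 31.8 and 32.5 CPM with NT siRNA, in the high experiment, and to 233.7 CPM with Satb1 siRNA, against 311.6 CPM with NT siRNA, in the low one. Of 11 tested, 2 were called higher and 7 lower (Esam 0.54, Eng -0.67) in the high experiment. Eng alone gave 127.3 CPM of the low sum with Satb1 siRNA, against 221.2 CPM with NT siRNA. Esam went the other way there, at 26.1 CPM with Satb1 siRNA, against 8.68 CPM with NT siRNA. Of the 8 endothelial markers whose log2 CPM averaged 0 or more, 2 were at least 2-fold higher in the low experiment and none lower, beside 9.28% and 3.93% of all genes. Their median log2 ratio there was -0.094, beside -0.059 for all genes. Trat1, Gzma, Emcn and Cldn5 were the markers of these lists with a count of 0 in at least 1 library. The part of these cells in the Gimap levels was not tested.

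Other GTPases of immunity were mostly lower in the high experiment. Of 15 interferon-induced GTPase genes, of the GBP, IRG, Mx and Gvin kinds, 13 were called lower, none higher and 2 not (Gbp2 -0.83, Gbp3 -0.70), with a median of -0.33, where 33.2% of all genes tested were called lower and their median was 0.011. In the low experiment the median of the 15 was -0.39, none was at least 2-fold higher or lower, and in the low NT library 14 were at least 2-fold higher than in the high NT libraries, as were 25.7% of all genes whose log2 CPM averaged 0 or more. Lists tied to Gimap function from studies in lymphocytes were mixed. Of 13 Bcl2 family genes 9 were called lower, 2 higher and 2 not (Mcl1 -0.18, Bak1 -0.79). Of 11 autophagy genes, whose GABARAP branch binds Gimap6, 8 were called lower and 3 not (Sqstm1 -0.56, Gabarap -0.49). Of 12 genes of lymphocyte quiescence and homing 6 were called lower, 3 higher and 3 not (Il7r -1.38, Slfn2 -0.45). Of 11 genes of the GSK3 and PI3K-AKT axis 4 were called lower, 4 higher and 3 not (Ctnnb1 -0.11, Gsk3a -0.48). Medians were -0.27 for the Bcl2 family, -0.14 for autophagy, -0.062 for quiescence and homing and -0.00025 for the GSK3 and PI3K-AKT axis.

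The cells were labelled dendritic cells, and their classical markers were all detected. Of 12, 7 were called higher and 5 lower (H2-Ab1 -0.87, Itgax -1.95) in the high experiment, with a median of 0.25. Their sum there was 279.7 and 277.5 CPM with Satb1 siRNA, against 379.9 and 380.5 CPM with NT siRNA. H2-Ab1 alone gave 96.9 and 95.3 CPM of this with Satb1 siRNA, against 176.5 and 175.9 CPM with NT siRNA. The sum of all 12 in the low experiment was 2518 CPM with Satb1 siRNA, against 2350 CPM with NT siRNA. H2-Ab1 alone gave 1632 CPM of this with Satb1 siRNA, against 1704.5 CPM with NT siRNA. The median log2 ratio of the 12 there was 0.86, beside -0.059 for all genes whose log2 CPM averaged 0 or more. Of the 12, 4 were at least 2-fold higher and none lower, beside 9.28% and 3.93% of those genes. Calls of the remaining lists in the high experiment were 8 higher and 5 lower of 14 macrophage markers (Cd163 0.98, Mrc1 0.090), 4 higher and 5 lower of 10 monocyte markers (F13a1 0.42, Chi3l3 1.16) and 4 higher and 2 lower of 9 neutrophil markers (Mmp9 0.37, Cxcr2 0.37). They were 1 higher and 8 lower of 9 markers of mature migratory dendritic cells (Marcksl1 -0.41, Relb -0.37), 8 higher of 10 tumour, epithelial and mesothelial markers (Wt1 0.54, Gpm6a 0.25) and 2 higher of 5 erythroid markers (Alas2 0.51, Hba-a2 0.16). The Hba-a2 call ended in DESeq2 and without the first NT library. Low-experiment medians, over markers whose log2 CPM averaged 0 or more, were 1.64 for tumour, epithelial and mesothelial and -1.74 for neutrophil markers. They were -0.74 for macrophage, -0.45 for monocyte, 0.52 for mature migratory dendritic cell and -0.22 for erythroid markers, beside -0.059 for all genes. Of 9 tumour markers 8 were at least 2-fold higher, and of 9 neutrophil markers 6 at least 2-fold lower. Among all genes at that level these shares were 9.28% and 3.93%. The bearing of this on the Gimap levels was not tested.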

How the data were processed

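RNA was isolated with Trizol and made into stranded total RNA libraries, per the labels' protocols. Per the file headers, the deposited table holds an FPKM value and a count per gene and library. The submitters' processing notes list RSEM 1.2.12, DESeq2 and the build mm9, so the deposited counts are taken as estimated counts; all were already whole. For the aligner, the filters and the use of strand, nothing is given in the sources used here. The authors' FPKM are relative to transcript length and library size. A count that divides reads among near-identical genes makes Gimap3 and Gimap5 uncertain.

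The members and gene lists were chosen with earlier results of these data known. The main fit was edgeR 4.0.16 in R 4.3.3 on the 4 libraries of the high experiment (quasi-likelihood, robust, TMM, filterByExpr, two-sided, Benjamini-Hochberg, threshold 0.05). All printed fold changes of list genes come from it. Since no label places the repeats in separate mice, its calls compare libraries and measure the spread between them, which may be technical. The fit was also run on simulated data with changes of at least 2-fold and little spread beyond counting noise. Those data say nothing about spread between mice or about smaller changes. Member ratios use summed counts over TMM-scaled sizes with exact intervals; medians and the 3 comparisons drawn in chromosome order use a prior count of 2. Of 204 list entries, 190 matched. Genes named are all members, all neighbours, the 2 genes of each list with the smallest p, the 8 genes nearest to Gimap4 and markers with a count of 0 in a library. Cd3e, Cd22, Ncr1, Klre1, Prf1 and the likeness of Cd3d to Gimap1 were chosen after their values were seen. Alternatives were library size alone, DESeq2 1.42.0, no filter, prior count 0.5, the authors' FPKM (pseudocount 0.1), a replicate block and each library left out. Sequences came from GENCODE M21 transcripts and RefSeq (GRCm38.p6), aligned with Biopython 1.88; coordinates are of that build, not of mm9.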

Additional observations from a re-analysis of the deposited data

Results flagged for a closer look

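After TMM scaling, in 6 members every library moved one way with Satb1 siRNA in the high experiment and the other way in the low one, and the difference between the experiments was not tested. The log2 ratio in the high experiment minus that in the low one was 2.91 for Gimap7, 2.05 for Gimap5, 1.93 for Gimap4, 1.07 for Gimap8, 0.90 for Gimap6 and 0.42 for Gimap1. This contrast of the experiments is the one that chose the family, so these values describe it and add no evidence. For Gimap1 the low interval included 1, and so did that of Gimap7.
With library size alone and on the authors' FPKM, Gimap1 was above 0 in both experiments, and the difference between them was 0.13 and 0.17. Of these 6 members 5 were left with opposite directions, while Gimap3 showed the pattern only in these settings.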

How the results depend on the processing

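Of 20242 genes tested, 13367 were called in the high experiment, against 13372 with library size alone, 14391 with no filter, 10099 in DESeq2 and 11942 to 12092 with 1 library left out. With library size alone 57.5% of calls were higher, against 49.7%. Entries of the lists called were 143, against 148 with library size alone, 122 in DESeq2 and 130 to 133 with 1 library left out. Members called higher were 6, against 7 with library size alone and 5 in DESeq2 and without the second NT library. Members above 0 numbered 8, or 7 to 8 with 1 library left out. Between the NT libraries, Gimap8 turned to -0.15 with library size alone and to -0.72 on the authors' FPKM. The length implied by its unscaled CPM over FPKM was 2.37 and 2.57 kb in the high NT libraries, against 3.74 kb in the low NT library. The cause of the turn was not tested. In the lists, 2 Bcl2 family genes called higher became 4 with library size alone and 1 in DESeq2, endothelial genes called higher were 1 in place of 2 in the block and with each library left out, tumour genes called higher were 5 in DESeq2 in place of 8, neighbours called higher were 2 without the first Satb1 siRNA library in place of 4, and natural killer genes called higher were 4 with no filter in place of 2. With a count of 3 to 35 in a library, Gimap7 is limited by depth.

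With the replicate number as a block, 13248 genes and 141 list entries were called and 8 members were above 0. Same-numbered libraries did not deviate together (r = -0.031 over 12962 genes), and with 2 numbers they are not treated as pairs.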
